A study of Mus musculus with 4 samples.

Results

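Polr2a encodes RPB1, the large catalytic subunit of RNA polymerase II (RNAPII), and was examined here with 9 genes whose products act on it during elongation and termination: the kinases Cdk9, Cdk12 and Cdk13, the cyclins Ccnt1, Ccnt2, Ccnl1 and Ccnl2, the elongation factor Supt5 and the termination factor Pcf11. These 10 genes were chosen by name from the 19609 genes of a table of mean expression per cell cluster, and all 10 were in the table. The choice was made with earlier results of these data known. The table came from single nucleus RNA sequencing (snRNA-seq) of kidney cortex of 4 male mice of mixed strain, 1 mouse per condition. Control mice carried TRE-hKLF6 alone, a human KLF6 transgene that needs a transactivator. Overexpressing mice (hKLF6 OE) carried CAG-rtTA,TRE-hKLF6, in which a CMV-chicken beta-actin promoter drives the transactivator in all tissues, so that overexpression was not limited to tubule cells. One mouse of each genotype was uninjured and one was given 1 intraperitoneal injection of aristolochic acid I (AAI) at 2 mg/kg and killed after 24 hours. AAI is a plant toxin that forms DNA adducts and injures the proximal tubule (PT). The study's methods give a doxycycline diet, which switches the transgene on in rtTA carriers, to both genotypes for 1 week before the injection, and do not give the age of these mice.

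RNAPII transcribes messenger RNA, and its C-terminal domain is phosphorylated as it moves along a gene. P-TEFb, made of CDK9 with cyclin T1 or T2, phosphorylates the polymerase, the pausing factor NELF and the SPT5 protein encoded by Supt5, and so lets a paused polymerase go on. CDK12 and CDK13 are further C-terminal domain kinases that pair with cyclin K and sustain elongation through long genes, cyclins L1 and L2 pair with CDK11 and are linked to splicing, and PCF11 binds the C-terminal domain to cleave the transcript and release the polymerase. The proximal tubule is the segment that reabsorbs most of the filtered load and takes up AAI through organic anion transporters.

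The promoters of the 3 genes with the largest differences in the injured cluster of the control mouse described below (Polr2a, Pcf11, Ccnl2) and of both kinases that did not pass there (Cdk12, Cdk13) are shown so that the letters can be set beside the values. Each runs 5′ to 3′ on the gene's own strand from 250 bases before to 50 bases after the RefSeq start (GRCm38.p6). Capitals mark 3 motifs, searched on either strand. The GC box was searched as the letters GGGCGG. The KLF-type box was searched as CACCC and is named by these letters below. The TATA box was searched by its usual core of 6 letters, TATAAA. Neighbouring or overlapping matches merge into one run of capitals. GC and CACCC boxes are bound by the SP and KLF families, among others. The windows are chr11:69758584-69758883 (minus strand) for Polr2a, chr7:92669863-92670162 (minus) for Pcf11, chr4:155812239-155812538 (plus) for Ccnl2, chr11:98203055-98203354 (plus) for Cdk12 and chr13:17805048-17805347 (minus) for Cdk13.
Polr2a: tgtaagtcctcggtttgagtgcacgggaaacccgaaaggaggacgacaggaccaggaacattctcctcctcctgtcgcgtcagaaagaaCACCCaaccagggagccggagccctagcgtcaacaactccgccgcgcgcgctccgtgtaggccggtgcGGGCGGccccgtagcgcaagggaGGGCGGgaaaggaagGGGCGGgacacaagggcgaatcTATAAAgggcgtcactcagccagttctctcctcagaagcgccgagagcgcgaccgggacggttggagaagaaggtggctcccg
Pcf11: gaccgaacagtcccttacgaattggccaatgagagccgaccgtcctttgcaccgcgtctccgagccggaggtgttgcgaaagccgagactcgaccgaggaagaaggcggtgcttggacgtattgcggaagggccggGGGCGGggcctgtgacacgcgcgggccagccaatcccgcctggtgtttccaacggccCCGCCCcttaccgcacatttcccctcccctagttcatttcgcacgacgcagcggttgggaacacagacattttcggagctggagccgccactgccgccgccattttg
Ccnl2: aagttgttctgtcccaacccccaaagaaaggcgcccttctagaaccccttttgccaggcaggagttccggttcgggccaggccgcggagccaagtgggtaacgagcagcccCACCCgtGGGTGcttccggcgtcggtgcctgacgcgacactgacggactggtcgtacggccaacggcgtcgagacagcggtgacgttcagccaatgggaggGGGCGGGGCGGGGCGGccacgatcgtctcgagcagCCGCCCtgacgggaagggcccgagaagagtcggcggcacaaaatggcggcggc
Cdk12: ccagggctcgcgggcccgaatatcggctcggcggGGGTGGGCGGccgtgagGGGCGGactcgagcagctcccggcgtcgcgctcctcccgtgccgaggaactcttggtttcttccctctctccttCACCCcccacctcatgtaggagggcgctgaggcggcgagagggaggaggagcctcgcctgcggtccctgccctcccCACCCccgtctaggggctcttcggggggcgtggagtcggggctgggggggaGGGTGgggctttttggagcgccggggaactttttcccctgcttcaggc
Cdk13: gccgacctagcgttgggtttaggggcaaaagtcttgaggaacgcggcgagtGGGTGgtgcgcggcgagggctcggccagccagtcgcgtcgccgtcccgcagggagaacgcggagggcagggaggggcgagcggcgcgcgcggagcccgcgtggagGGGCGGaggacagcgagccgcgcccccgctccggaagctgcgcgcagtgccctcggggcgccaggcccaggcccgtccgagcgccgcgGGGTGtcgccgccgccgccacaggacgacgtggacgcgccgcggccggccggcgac

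All 10 genes had a promoter in the RefSeq set. A GC box was found in 10 of the 10, against 35.7% of 32851 promoters of the same length. A CACCC box was found in 8 of 10, against 57.5%, and was missing from Cdk9 and Pcf11. The TATA letters were found in Polr2a alone, 33 bases before the start, against 13.6% of all promoters. TGACG, the core of the cyclic AMP response element, stood 3 times in Polr2a and 4 times in Ccnl2 and in 5 of 10 promoters in all, against 20.8%. CCAAT was found in 4 of 10 (3 times in Pcf11), against 37.4%. The AP-1 letters TGANTCA were in none of the 10, against 7.81%. The 10 windows held 61.3% to 78.3% G and C, where the median promoter held 52.7%. Cdk12 and Cdk13, which were not higher in the injured cluster in both mice with AAI, held GC and CACCC boxes too. Cdk12 had 2 GC and 4 CACCC boxes, and Cdk13 had 1 and 2, next to 3 and 1 in Polr2a and 2 and 0 in Pcf11. A match is a description of letters and not a bound site.

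Each value below is the mean over the nuclei of 1 cluster in 1 mouse, with the counts of a nucleus scaled to 10000. The 23 clusters and their names are those of the study. A gap between clusters or mice is given as the difference of log2(value + 1), and a gene passed the filter when 1 side of each comparison reached 0.5. Past a difference of 0.2, in both AAI mice where both were used, a gene is called higher or lower. With 1 mouse per condition there was no spread between mice and no test, so counts of called genes are read against the share of all genes called the same way. A gene that is under 0.5 on one side passes the filter only through the side where it is high, which nearly fixes its direction. A cluster mean does not tell more nuclei with the transcript from more transcript per nucleus.

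The number of nuclei and the reads behind each mean are not in the table. The study gives reads per nucleus for the libraries and nuclei per cluster, but no value of depth for each column was used here, and the coarseness of the values stands in for it. In the normal PT columns 15.1% to 31.3% of genes were at 0. The uninjured columns of InjuredPT-A and InjuredPT-B had 40.8% to 62.6% of genes at 0, and Macrophage, LH-DL and LH-AL-3, the thinnest other clusters, had a smallest value above 0 of more than 0.1 in at least 1 mouse. Markers stood highest in the cluster of their name for podocytes, distal tubule and intercalated cells. Of the 4 mesangial markers, Pdgfrb and Meis1 were highest in MC, but Ebf1 was highest in EC-2 (19.9 against 12.3 in MC, means of 4 mice) and Itga8 in Macrophage (1.19 against 0.995). EC-1 was less clear, with summed endothelial markers of 7.89 to 9.76 against 46.2 to 52.4 in EC-2 and summed proximal tubule markers of 72.3 to 95.4. The injury markers Havcr1, Lcn2, Krt20 and Vcam1 were low in InjuredPT-A, and others were not. Cdkn1a, which encodes the cell cycle inhibitor p21, stood there at 4.83 and 9.31 in the control and hKLF6 OE mice with AAI. In the same mice Mdm2 stood at 9.32 and 6.77, mouse Klf6 at 7.46 and 6.68 and Cxcl1 at 4.8 and 2.52. Mdm2 (7.69 and 8.16) and Cxcl1 (2.63 and 2.65) were also high in PT-S3-3, a normal PT cluster, of these mice.

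Polr2a and Pcf11 had the largest differences of the group between InjuredPT-A and normal PT. The study named this injured proximal tubule cluster, and presented Polr2a as one of its markers, from the same nuclei, so the height of Polr2a there is a description and not independent evidence. Polr2a was 24.3 in InjuredPT-A of the control mouse with AAI and 1.83 in the mean of its 5 normal PT clusters (PT-S1-S2-1, PT-S1-S2-2, PT-S3-1, PT-S3-2 and PT-S3-3). In the hKLF6 OE mouse with AAI it was 23.3 against 1.71. These are ratios of 13.3 and 13.6 and log2 differences of 3.16 and 3.17. Ranked by the smaller of both mice, Polr2a took place 1 of the 5008 genes that passed the filter. Pcf11 was 8.52 against 1.20 in the control mouse and 7.0 against 1.02 in the hKLF6 OE mouse, differences of 2.11 and 1.98 and place 12. In both AAI mice the next cluster was far below InjuredPT-A for Polr2a, with MC at 5.39 and 4.44.

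**Figure D1:**
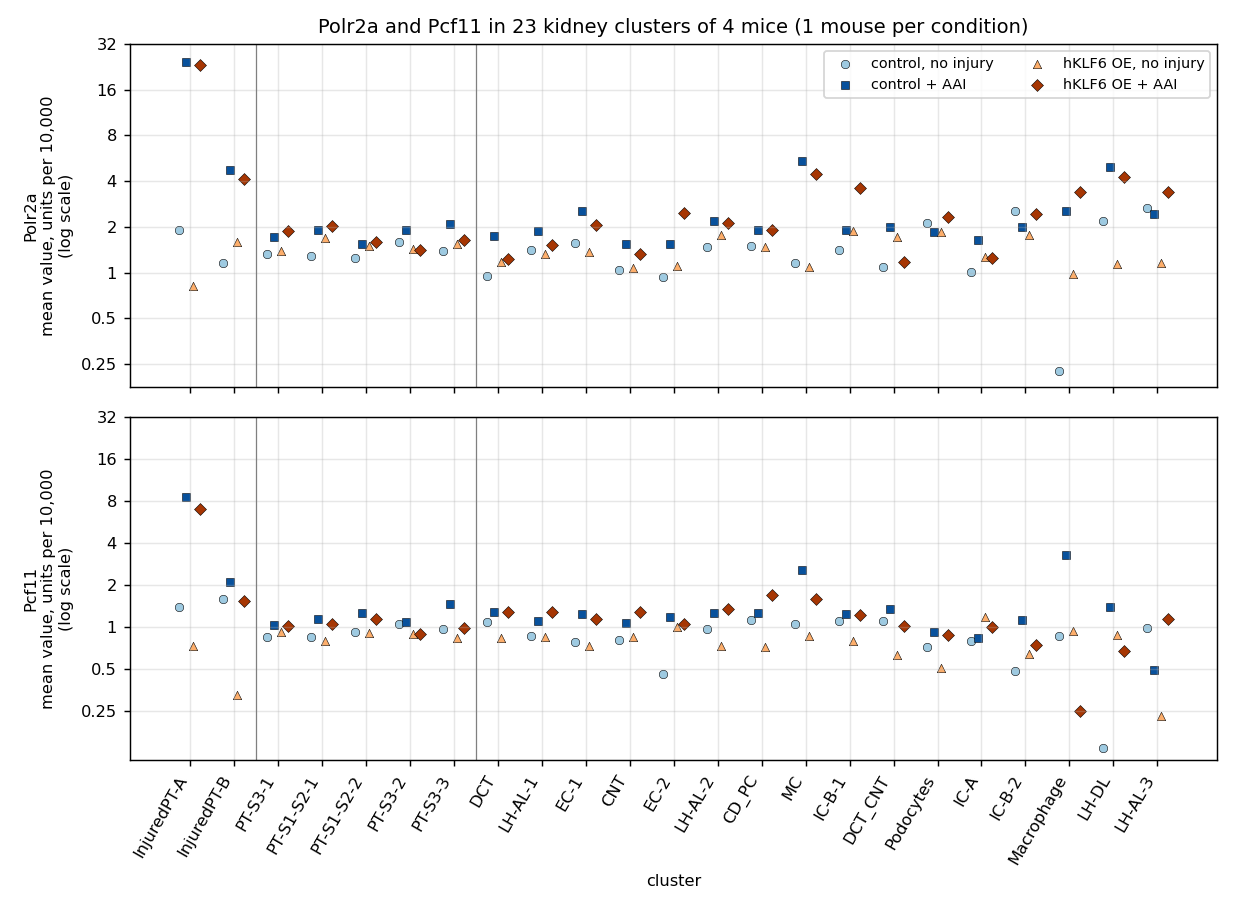
Mean value of Polr2a (top) and Pcf11 (bottom), in units per 10000 on a log scale, in each of the 23 clusters (x axis), with 1 point per mouse. In InjuredPT-A both AAI mice lie above all other columns, at 24.3 and 23.3 for Polr2a and 8.52 and 7.0 for Pcf11, while the uninjured mice lie at 1.90 and 0.817 for Polr2a.

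Among the cyclins, Ccnl2 was 8.61 against 2.79 in the control mouse with AAI and 7.07 against 2.95 in the hKLF6 OE mouse with AAI, differences of 1.34 and 1.03. Ccnl1 was 4.57 against 1.48 and 3.51 against 1.44, differences of 1.16 and 0.89. Both cyclins L therefore stood 2.40 to 3.08 times as high in InjuredPT-A as in normal PT. Ccnt1, a regulatory subunit of P-TEFb, was 3.50 against 1.16 and 3.29 against 1.09, differences of 1.06 and 1.04 that were nearly equal in the mice. Ccnt2, its alternative partner, was closer to normal PT at 3.00 against 1.74 and 2.25 against 1.72, with differences of 0.55 and 0.26.

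The kinases did not move together. Cdk9 was 0.775 against 0.302 and 1.01 against 0.358, differences of 0.45 and 0.56 on low values. Cdk12 was 2.90 against 2.54 and 2.60 against 2.61, differences of 0.14 and -0.01. Cdk13 was 2.39 against 1.83 and 2.14 against 2.08, differences of 0.26 and 0.02, so it passed in the control mouse with AAI and not in the hKLF6 OE mouse with AAI. Supt5, whose product binds the polymerase and is itself a P-TEFb target, was 1.36 against 0.513 and 1.15 against 0.607, differences of 0.64 and 0.42. In all, 8 of the 10 genes were higher in InjuredPT-A and 0 were lower. The group was chosen with earlier results of these data known, so its counts are a description and not independent evidence. Cdk9 passed the filter only through InjuredPT-A. Of the 5008 genes that passed, 43.3% were higher and 27.0% lower, with medians of 0.19 (control mouse) and 0.15 (hKLF6 OE mouse). The 10 genes had medians of 0.85 and 0.73. Among genes that reached 0.5 in normal PT of both mice, 7 of 9 members were higher, against 26.1% of all genes, and 0 were lower, against 37.8%. With the differences centred on the median of all genes the count was 7 of 10, Ccnt2 no longer passing, while 29.6% of all genes were then higher and 35.3% lower.

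**Figure D2:**
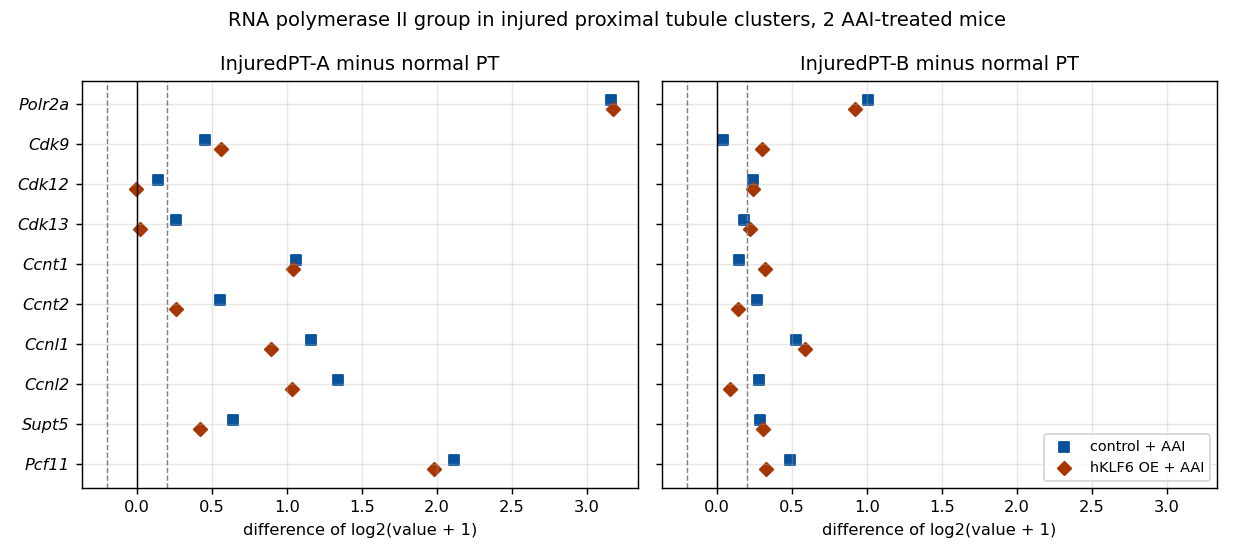
Difference of log2(value + 1) between InjuredPT-A (left) or InjuredPT-B (right) and the mean of the 5 normal PT clusters of the same mouse, for the 10 genes (y axis). Squares are the control mouse with AAI, diamonds the hKLF6 OE mouse with AAI, and dashed lines mark 0.2 on either side of 0. Polr2a lies at 3.16 and 3.17 in InjuredPT-A and at 1.01 and 0.92 in InjuredPT-B, and Cdk12 lies at 0.14 and -0.01 in InjuredPT-A.

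The 10 genes differ in length, and length moved with the result. By GENCODE gene models on GRCm38, the genes span 7.29 kb (Cdk9), 12.1 kb (Ccnl1 and Ccnl2), 23.9 kb (Supt5), 24.6 kb (Polr2a, chr11:69733997-69758637), 26.4 kb (Pcf11, chr7:92643543-92669934), 32.2 kb (Ccnt1), 33.9 kb (Ccnt2), 75.4 kb (Cdk12) and 94.8 kb (Cdk13). All 6 genes under 30 kb were higher in InjuredPT-A, and so were 2 of the 4 between 30 and 100 kb. Over all genes that passed, 73.7% of those under 30 kb, 32.3% of those of 30 to 100 kb and 6.74% of those over 100 kb were higher. These counts and shares include genes that passed only through InjuredPT-A, Cdk9 among them. The median difference of all genes under 30 kb was 0.47 in the control and 0.46 in the hKLF6 OE mouse with AAI. Polr2a and Pcf11 were above it, but they were singled out by these same values. The part of length in the result was not tested.

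Levels of different genes are given per length, since the reads cover introns. Division by span favours short genes, so the order below depends on it. Whether the values grow with span was not tested. Per 10 kb of gene span, Polr2a stood at 9.86 and 9.47 in InjuredPT-A of the control and hKLF6 OE mice with AAI, and Ccnl2 at 7.15 and 5.87. Ccnl1 (3.78 and 2.90) and Pcf11 (3.23 and 2.65) followed. The other 6 genes lay between 0.225 and 1.38 per 10 kb, with Cdk13 lowest. In normal PT of the same mice the order began otherwise, with Ccnl2 at 2.32 and 2.45, Ccnl1 at 1.23 and 1.19 and Polr2a next at 0.744 and 0.694. Some spans are shared. Cdk13 overlaps 8430406P12Rik and Gm48624 on its own strand, and Cdk9 and Cdk12 overlap small RNA genes on theirs, so reads there are uncertain. Pcf11, Ccnt1, Ccnl1 and Supt5 overlap genes on the opposite strand alone (Gm26944 and 6430511E19Rik in Pcf11). What the overlaps add to the values was not tested.

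Nuclei placed in InjuredPT-A in the uninjured mice did not have high Polr2a. Its value there was 1.90 (control mouse) and 0.817 (hKLF6 OE mouse), 12.5 and 40.8 times the smallest value above 0 in those columns. Pcf11 was 1.40 and 0.736, and Ccnl2 was 2.91 and 1.69. Cdk9 was listed at 0 in the control mouse, and Ccnt2 stood at the smallest value above 0 of that column, 0.151. These columns are thin, with 62.6% and 40.8% of genes at 0. Their proximal tubule markers summed to 95.3 and 76.5, against 27.4 and 40.5 with AAI, and their injured tubule markers to 3.00 and 2.41, against 28.5 and 26.6.

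InjuredPT-B, the other injured proximal tubule cluster, had a smaller gap. Polr2a was 4.70 and 4.14 there in the control and hKLF6 OE mice with AAI, differences of 1.01 and 0.92 from normal PT. Ccnl1 was 2.59 and 2.67 (0.53 and 0.59), Pcf11 was 2.10 and 1.54 (0.49 and 0.33), Supt5 was 0.854 and 0.985 (0.29 and 0.31) and Cdk12 was 3.18 and 3.27 (0.24 in both mice). These 5 were higher among the 9 genes that passed, and 0 were lower. Cdk13, Ccnt1, Ccnt2 and Ccnl2 lay between 0.09 and 0.32 and passed in 1 mouse at most. Cdk9, at 0.339 and 0.678, did not pass the filter. Over 4148 genes, 23.4% were higher and 13.1% lower. Centred on the median of all genes, 3 members were higher (Polr2a, Ccnl1 and Pcf11), with 9.88% of all genes higher and 18.1% lower. Cdk12 had a lower value in InjuredPT-A than in InjuredPT-B, at 2.90 against 3.18 and 2.60 against 3.27.

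Other genes of RNAPII transcription were counted from 10 lists of 151 genes, of which 147 were in the table and 70 passed the filter in InjuredPT-A. Of those, 39 were higher (55.7%) and 10 were lower (14.3%), with a median of 0.34 and 0.29, but 20 of the 70 passed only through InjuredPT-A in at least 1 mouse. The share over all genes to set beside each list count is 43.3% higher and 27.0% lower. The lists, like the group, were chosen with earlier results of these data known. The list of RNAPII subunits held 12 genes chosen by name, among them Polr2m, which is not a core subunit. Of the 12 genes 4 passed, and all of these did so only through InjuredPT-A, so their direction is no result. They were Polr2l (0.70 and 0.80), Polr2b, the subunit that forms the active site together with RPB1 (0.29 and 0.90), Polr2h (0.29 and 0.35) and Polr2m (0.26 and 0.38). The other 8 were under 0.5 on both sides in both mice.

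Regulators of P-TEFb went both ways, with 6 of 9 higher and 2 lower. Hexim1, which holds P-TEFb inactive in the 7SK particle, was 1.84 against 0.188 and 2.50 against 0.25, differences of 1.26 and 1.48. It passed only through InjuredPT-A, as did Wdr61 below. Mllt3 (-0.88 and -1.19) and Aff1 (-0.41 and -0.58), parts of the super elongation complex, were lower. Wdr61, a subunit of the PAF1 elongation complex, had the largest difference of all lists at 1.66 and 1.73, from 0.408 to 3.44 and from 0.363 to 3.54. In its list of pausing and elongation factors 5 of 8 were higher and 0 lower, and Ctr9, of the same complex, lay at -0.10 and -0.13.

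Among cleavage, polyadenylation and termination genes, the class of Pcf11, 8 of 12 were higher and 0 lower. Rbbp6 led them with 1.33 and 1.11. Of the C-terminal domain phosphatases and binders, 4 of 10 were higher, led by the phosphatase Ssu72 (0.82 and 0.77). Ssu72 passed the filter only through InjuredPT-A. Ctdspl (-0.88 and -0.86), Scaf8 (-0.35 and -0.40) and Rpap2 (-0.29 and -0.30) were lower. Ccnk, the partner of CDK12 and CDK13, was 0.909 against 0.306 and 1.13 against 0.205, differences of 0.55 and 0.82. It passed the filter only through InjuredPT-A, which nearly fixed its direction. Cdk8, the Mediator kinase, was lower at -0.70 and -0.79.

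General transcription factors were higher in 5 of 8, led by Gtf2a1 (1.28 and 0.83), with Gtf2h2 of TFIIH lower (-0.52 and -0.53). Mediator was near the share of all genes, with 4 of 10 higher, led by Med22 (0.43 and 0.70), and 3 lower, namely Med27 (-0.62 and -0.60), Med14 (-0.51 and -0.63) and Med13l (-0.48 and -0.57). Of the 10 Mediator genes 4, Med22 among them, passed the filter only through InjuredPT-A in at least 1 mouse. So did 2 of the 8 general transcription factors. Integrator genes passed the filter in 3 of 13, and 0 of these were called. Of the 4 genes of stalled polymerase repair 1 passed, Uvssa, at 0.19 and 0.27. None of the 11 list genes over 100 kb that passed was higher and 5 were lower, while 20 of 22 under 30 kb were higher, where 6.74% and 73.7% of all genes of these lengths were higher. Genes that passed only through InjuredPT-A are in these counts and shares, so the contrast depends in part on the filter. In InjuredPT-B 54 of the list genes passed, and 14 were higher (25.9%, near the 23.4% of all genes) and 3 lower (Med14, Med27 and Mllt3).

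**Figure D3:**
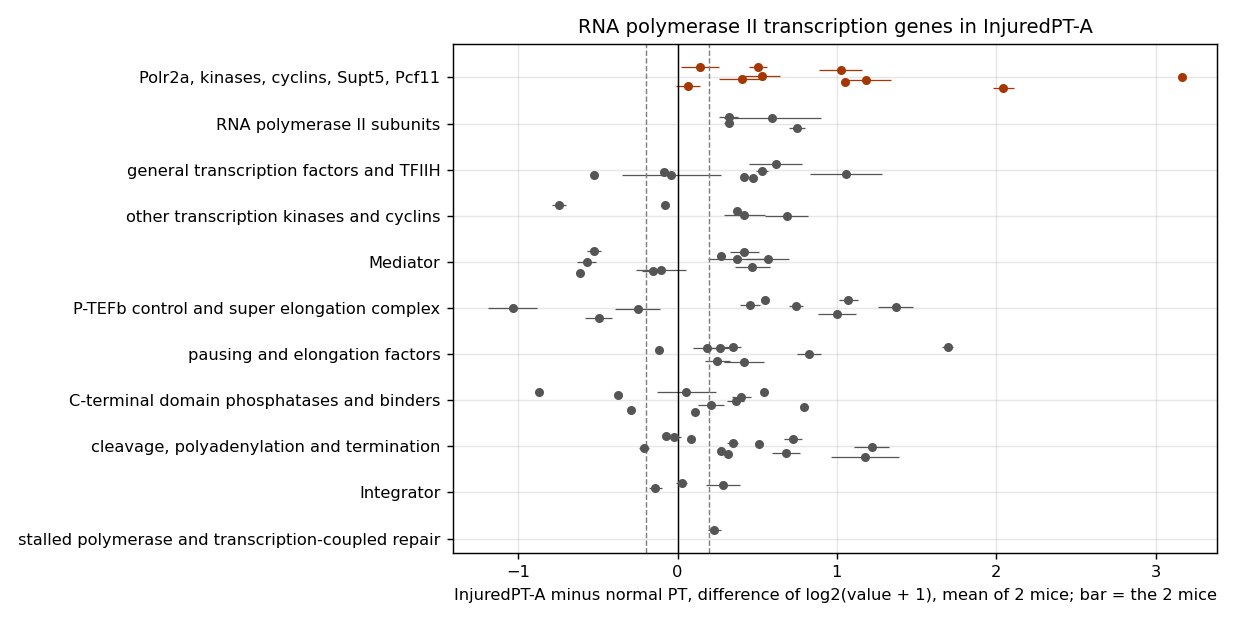
Difference of log2(value + 1) between InjuredPT-A and normal PT (x axis) for each gene that passed the filter, by list (y axis, spread at random within a row). Points are the mean of the 2 AAI mice, bars join both mice, and dashed lines mark 0.2 on either side of 0. Polr2a lies alone beyond 3, Wdr61 at 1.66 and 1.73 is the highest gene outside the top row, and Mllt3 at -0.88 and -1.19 is the lowest.

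The genes with the pattern most like that of Polr2a were found by Pearson's r of log2(value + 1) over the 92 columns of 23 clusters and 4 mice, among 7848 genes. Columns of 1 mouse share a library and the clusters differ in depth, so r is a description. The 5 closest were Cdkn1a (0.846), Gm27003 (0.819), 1700010K24Rik (0.797), Klf6 (0.794) and Cacna2d4 (0.784). InjuredPT-A carried much of this. Over the 88 columns without that cluster the closest were Cdkn1a (0.671), Btg2 (0.649), Jun (0.621), Klf6 (0.599) and Tmem167 (0.598). Klf6 here is the mouse gene, and the transgene has no row. It was 7.46 and 6.68 in InjuredPT-A and 0.406 and 0.327 in normal PT of the control and hKLF6 OE mice with AAI.

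Within the group, the gene closest to Polr2a depended on the measure. By Pearson's r it was Pcf11, with r of 0.700 over 92 columns and place 39 of all genes, but 0.305 without InjuredPT-A. Ccnl1 kept more of its likeness, with 0.647 and then 0.449. Ccnl2 (0.566, then 0.239), Ccnt1 (0.540, then 0.122) and Supt5 (0.534, then 0.390) lay below. Cdk9 (0.344), Cdk12 (0.304), Cdk13 (0.254) and Ccnt2 (0.215) had the lowest r over 92 columns. Cdk12 had 0.376 without InjuredPT-A, above its value with it. By Spearman's rho over the 92 columns Cdk12 was the closest member (0.529, place 16), followed by Ccnl1 (0.477, place 39), while Pcf11 had 0.321 and place 319.

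The 10 genes had values above 0 in every column except for Cdk9, which was listed at 0 in 2 columns, InjuredPT-A of the uninjured control mouse and LH-DL of the control mouse with AAI. In the uninjured control mouse Polr2a ran from 0.223 in Macrophage to 2.65 in LH-AL-3 (loop of Henle, ascending limb) over all clusters, and from 1.25 to 1.60 in the normal PT clusters. In the uninjured hKLF6 OE mouse it ran from 0.817 in InjuredPT-A to 1.87 in IC-B-1, type B intercalated cells, and from 1.38 to 1.68 in normal PT. With 1 mean per mouse, neighbours in this order cannot be told apart. Few places held in all 4 mice. Among the 21 clusters other than the injured ones, Polr2a was among the lowest 5 in CNT (connecting tubule), at 1.04 and 1.07 without injury and 1.55 and 1.32 with AAI.

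Podocytes were among the lowest 5 for Ccnl2, at 1.48 to 2.23, and for Pcf11, at 0.513 to 0.920, and among the highest 5 for Cdk9, at 0.410 to 0.622. IC-B-2 was among the highest 5 for Ccnl2, at 3.30 to 4.97, and for Ccnt2, at 2.35 to 2.93. Cdk13 was among the highest 5 in LH-AL-3 (2.30 to 2.76) and Supt5 in PT-S1-S2-1 (0.582 to 0.802), and Ccnl1 was among the lowest 5 in LH-AL-2 (0.639 to 1.20). Cdk12 and Ccnt1 had no such place.

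In normal PT with AAI, the share of the group called was near that of all genes in control mice and smaller in hKLF6 OE mice. In control mice Polr2a rose from 1.37 to 1.83, a difference of 0.26, and the difference was positive in each of the 5 PT clusters, from 0.17 to 0.37. Ccnl2 fell from 3.36 to 2.79, a difference of -0.20, and the difference was negative in each of the 5, from -0.25 to -0.09. The other 7 genes that passed lay between -0.02 and 0.19, with Pcf11 the highest, from 0.929 to 1.20. Thus 2 of 9 were called, 1 in each direction, where 23% of 4052 genes were called in either direction. In hKLF6 OE mice Cdk13 rose from 1.62 to 2.08, a difference of 0.24, and Polr2a went from 1.51 to 1.71, a difference of 0.11. Here 1 of 9 was called, where 34.9% of 4133 genes were called in either direction, 19.5% higher and 15.4% lower. Centred on the median of all genes in hKLF6 OE mice, 0 of 9 were called, with 14.4% of all genes higher and 19.2% lower. Cdk9 did not pass the filter in normal PT in either genotype.

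Outside the proximal tubule, the 10 genes gave 135 pairs of gene and cluster that passed in both genotypes over 16 clusters. AAI was followed by a higher value in both genotypes in 27 of these (20.0%) and by a lower value in 4 (2.96%). Over all genes, 11.5% of 66091 pairs were higher and 9.36% lower. EC-1, whose summed proximal tubule markers are above its endothelial ones, is among the 16, and without it 25 of 127 pairs were higher and 4 lower, against 11.8% and 9.64% of all pairs. Polr2a was higher in 7 of 16 clusters (EC-1, EC-2, CD_PC, MC, IC-B-1, Macrophage and LH-DL), with a median difference over the 16 of 0.38 in control and 0.27 in hKLF6 OE mice. Ccnl1 was higher in 6 and lower in 1, Cdk12 higher in 4, Pcf11 in 3, and Ccnt2 higher in 0 and lower in 1.

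MC, named as mesangial by the study, held the most of these pairs, with 7 of the 10 genes higher against 14.7% of all genes there. Polr2a rose from 1.15 to 5.39 in control and from 1.09 to 4.44 in hKLF6 OE mice, the highest cluster after InjuredPT-A in both. Supt5 rose from 0.184 to 1.31 and from 0.208 to 1.24, and it passed the filter only through the AAI side in both genotypes. Cdk13 rose from 1.43 to 2.03 and from 0.498 to 2.76, and Cdk12 rose from 1.64 to 3.14 and from 1.07 to 2.61. In hKLF6 OE mice Cdk13 too passed only through the AAI side. Pcf11 rose from 1.06 to 2.57 and from 0.862 to 1.59, Ccnl1 from 0.865 to 2.31 and from 1.08 to 1.71, and Ccnl2 from 2.16 to 2.89 and from 1.96 to 2.87. Ccnt1 went from 1.94 to 2.25 and from 1.27 to 1.03 and passed in neither direction. These differences set AAI against no injury in the same cluster, while those of InjuredPT-A were taken against normal PT of the same mouse. The calls in MC and in InjuredPT-A are therefore not on the same measure.

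Markers of other cells stood beside this. Proximal tubule markers in MC summed to 51.9 and 42.8 in control mice without and with AAI and to 46.1 in both hKLF6 OE mice, and mesangial markers to 21.3 and 23.3 and to 18.5 and 18.9. Injured tubule markers rose from 3.23 to 9.97 and from 1.79 to 7.79, and mouse Klf6 from 0.691 to 2.85 and from 0.491 to 1.71. Tshz2, chosen as a descending limb marker, stood highest in MC. The part of injured tubule RNA in the MC values was not tested. Without MC, 20 of 125 pairs were higher. Macrophage had 5 genes higher and LH-DL 3, and without these and LH-AL-3, the thinnest clusters, 18 of 108 pairs were higher and 2 lower. Of all genes, 17.5% were higher and 15.9% lower in Macrophage, and 17.1% and 17.3% in LH-AL-3. There and in LH-DL both shares were above those of all pairs over the 16 clusters (11.5% and 9.36%). The shares of all pairs without MC or without the thinnest clusters are not given. The counts without them are therefore not read as results about the members. In Macrophage of control mice, Polr2a and Cdk9 without AAI and Ccnt2 with AAI were under 0.5. So was Ccnl1 with AAI in LH-AL-3 of control mice. Each of these calls passed the filter there only through the other side.

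**Figure D4:**
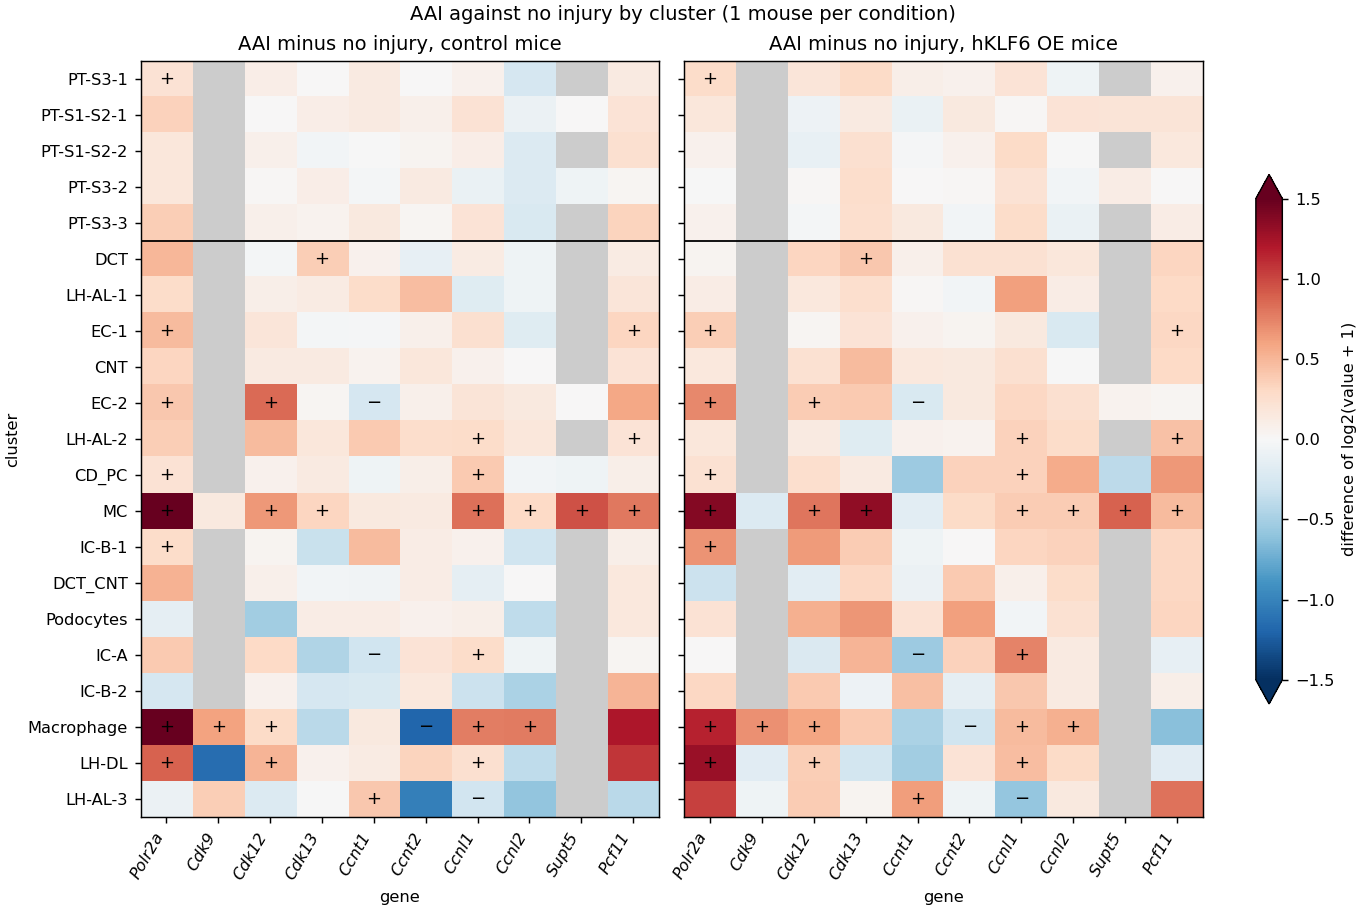
Difference of log2(value + 1) between AAI and no injury for the 10 genes (x axis) in 21 clusters (y axis), in control (left) and hKLF6 OE mice (right). Red is higher with AAI and blue lower, on a scale cut at 1.5, grey fields did not pass the filter in both genotypes, and + or − marks genes called in the same direction in both. Polr2a carries a + in 7 of the 16 clusters under the black line, and MC carries 7.

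Overexpression of hKLF6 alone left the group in normal PT within the threshold. Without injury, 0 of the 9 genes that passed were called. The differences between hKLF6 OE and control ran from -0.14 (Ccnl2, 2.96 against 3.36) to 0.09 (Cdk12, 2.62 against 2.41), and Polr2a was 1.51 against 1.37, a difference of 0.08. Of 4041 genes 7.84% were higher and 9.33% lower, and 9.33% and 7.42% when centred. With AAI, 0 of 9 were called in normal PT. Pcf11 was 1.02 against 1.20 (-0.12), Cdk13 was 2.08 against 1.83 (0.12) and Polr2a was 1.71 against 1.83 (-0.06). Of 3942 genes 6.32% were higher and 7.74% lower. With 1 mouse on each side these gaps do not show that the genotypes are alike.

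In InjuredPT-A the hKLF6 OE mouse with AAI had 4 of the 10 genes lower than the control mouse with AAI and 0 higher. These were Ccnt2 (2.25 against 3.00, -0.30), Ccnl1 (3.51 against 4.57, -0.30), Ccnl2 (7.07 against 8.61, -0.25) and Pcf11 (7.0 against 8.52, -0.25). Polr2a was 23.3 against 24.3, a difference of -0.06. Over 5253 genes 13.1% were higher and 22.3% lower. When the differences were centred on the median of all genes, 2 members were lower (Ccnt2 and Ccnl1), 1 was higher (Cdk9, 1.01 against 0.775), and 18.2% of all genes were higher and 15.1% lower.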

How the data were processed

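Kidney cortex nuclei of 4 mice, 1 per condition, were profiled by snRNA-seq in one technical batch. The deposited signal values were made by the authors: Cell Ranger counted reads against mouse pre-mRNA (mm10), Seurat filtered and clustered the nuclei, and counts of each nucleus, scaled to 10000, were averaged per cluster and mouse on a linear scale. The averaging function is not stated, and doublet removal is not described for these nuclei. The table gives neither reads nor nuclei for a column, and no interval is given. The table had 19632 rows, of which 23 names turned into dates by a spreadsheet were dropped, and 92 columns. Cluster numbers were named by the order of the study's marker sheets. For 8 sheets the 50 leading genes were checked, and 6 peaked in the cluster of their name (PT-S1-S2-2 and PT-S3-3 peaked in a neighbouring normal PT cluster, by 0.05 or less).

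Differences of log2(value + 1) were computed in Python 3.11.15 with pandas 2.3.3. The pseudocount was 1, the minimum value 0.5 and the threshold 0.2. The script was tested on simulated data with changes well past the threshold and little noise. This checks the computation and not how often a call in these data is wrong. Named genes were the 10 members, in each list the largest rise and fall in InjuredPT-A with any gene called lower, the 5 genes most like Polr2a over 92 and over 88 columns, and markers where they touched a result. One gene that this rule names is not reported here. Members and lists were chosen with earlier results of these data known. Alternatives changed the pseudocount, filter, threshold, centring, mitochondrial genes, reference clusters or mouse. Promoters came from RefSeq and gene models from GENCODE vM21.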

Additional observations from a re-analysis of the deposited data

Results flagged for a closer look

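In 14 of 177 pairs of gene and cluster that passed (7.91%), the difference between AAI and no injury went past 0.2 in opposite directions in control and hKLF6 OE mice, where 10.3% of 85296 pairs of all genes did so. None of these differences between genotypes was tested, and each rests on 4 means of 1 mouse each. The value given is the log2 difference in hKLF6 OE mice minus that in control mice.

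Polr2a differed by -0.83 in DCT_CNT, where it went from 1.09 to 1.98 in control mice and from 1.72 to 1.18 in hKLF6 OE mice, and by 0.56 in IC-B-2. Among the kinases, Cdk12 differed by 1.05 in Podocytes, from 3.01 to 1.79 in control and from 1.56 to 2.70 in hKLF6 OE mice, and by -0.52 in IC-A. Cdk13 differed by 0.96 in IC-A, 0.79 in Macrophage and 0.71 in IC-B-1. Among the cyclins, Ccnl1 differed by 0.72 and Ccnt1 by 0.69 in IC-B-2, and Ccnl2 by 0.68 in LH-DL, 0.65 in IC-B-1 and 0.61 in Podocytes. Pcf11 differed by -1.84 in Macrophage, from 0.866 to 3.31 in control and from 0.941 to 0.25 in hKLF6 OE mice, and by 1.21 in LH-AL-3. Macrophage, LH-DL and LH-AL-3 are the thinnest of these clusters.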

How the results depend on the processing

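No paired analysis was possible because each condition had 1 mouse and no result came from a test. No replicate could be left out. Of the alternative counts and correlations, 127 kept their value within 1.5 times the reported count (or within 0.1 of r) and 52 did not. Of the differences of single genes, 247 kept their call, 64 did not and 0 of the called ones reversed. Polr2a stayed higher in InjuredPT-A in every alternative run, by 2.96 to 3.66 (smaller of both mice), and Pcf11 by 1.84 to 2.66. Counts over all genes fell with a threshold of 1, to 3.83% higher in InjuredPT-A and 0.193% in InjuredPT-B. The causes were not tested.

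The counts below show how many calls of members each setting gave. The share of all genes called also moves with the setting and is mostly not given beside them. They are therefore not read as results about the members. In InjuredPT-A the members higher (8) were 5 with a threshold of 0.5 and 4 with a threshold of 1. In InjuredPT-B (5) they were 8 with a pseudocount of 0.1, 3 of 6 with a minimum of 2, 2 with a threshold of 0.5, 0 with a threshold of 1, 3 when centred and 8 in the OE mouse alone. With AAI in normal PT of control mice, members higher (1) were 2 with a pseudocount of 0.1, 0 with a minimum of 2, 3 in PT-S1-S2-1, 0 in PT-S3-2 and 2 in PT-S3-3, and members lower (1) were 0 in PT-S1-S2-1. Both were 0 with thresholds of 0.5 and 1. In OE mice members higher (1) were 4 with a pseudocount of 0.1, 0 with thresholds of 0.5 and 1, 0 when centred, 2 in PT-S1-S2-2, PT-S3-1 and PT-S3-2, and 3 in PT-S3-3. For OE against control without injury (0), 2 were lower with a pseudocount of 0.1, 1 was higher in PT-S1-S2-1 and 1 was lower in each of PT-S1-S2-2, PT-S3-2 and PT-S3-3. With AAI (0), 1 was higher and 1 lower with a pseudocount of 0.1, 1 was higher in each of PT-S1-S2-1 and PT-S3-1, and 1 was lower in PT-S3-2 and 2 in PT-S3-3. In InjuredPT-A of OE against control, members higher (0) were 1 with a pseudocount of 0.1 and 1 when centred, and members lower (4) were 0 with thresholds of 0.5 and 1 and 2 when centred.

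The alternatives for the 16 clusters outside PT, and the minimum value in normal PT of both mice, were chosen after seeing the data. The counts of pairs, too, are given without the share of all pairs at the same setting. Pairs higher (27) were 44 with a pseudocount of 0.1, 11 of 54 with a minimum of 2, 7 with a threshold of 0.5 and 2 with a threshold of 1. Pairs lower (4) were 7 of 160 without a filter, 0 with a minimum of 2 and with thresholds of 0.5 and 1, and 2 without the thinnest clusters. The likeness of Cdkn1a to Polr2a was 0.846 over all columns and 0.671 without InjuredPT-A. By Spearman's rho the closest genes were Btg2 (0.652), Trp53inp1 (0.639) and Per1 (0.623).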
